A study of Rattus norvegicus with 14 samples.

Results

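The genes described here encode 10 receptors of the monocyte surface, chosen by symbol: Ccr2, Cx3cr1, Csf1r, Cd14, Clec4a3, Mrc1, Fcgr3a, Fcgr2b, Fcer1g and Fcgr1a. Each of the 10 symbols was matched by 1 probe set of the rat array, out of 14217 genes named by a probe set with a single symbol, and all 10 probe sets passed the filter on dim signals. The values are the log2 of the deposited MAS5 signal, on 14 arrays of peripheral blood mononuclear cells (PBMC) separated on Ficoll from female Wistar rats. MTXMS_A rats had collagen-induced arthritis (CIA), raised by immunisation with bovine type II collagen in Freund's adjuvant. They received methotrexate with mechanical stimulation, in which a needle is inserted and twirled, until day 34 (3 arrays). MS_A rats had CIA and received the stimulation alone until day 34 (3 arrays), and NOCIAMS_A rats were healthy and received the same stimulation (3 arrays). CIA_B rats had CIA and were sampled before any therapy (2 arrays), and NOCIA_B rats were healthy and sampled before therapy (3 arrays). The labels call these groups MTXAP, AP, HAP, RA and NORA, and the match of those names to the codes used here is a reading of the labels. Every rat was killed at sampling, and day 34 has no unstimulated group, so time and therapy cannot be told apart where a day 34 group is set against one before therapy.

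Monocytes are made in the bone marrow and circulate in blood before they enter tissue, and in rodents a classical form carries much Ccr2 while a non-classical form that patrols vessel walls carries much Cx3cr1. Csf1r, the receptor for colony stimulating factor, keeps the lineage alive. Fc receptors bind the constant part of antibodies and couple immune complexes to activation or inhibition of the cell, which is why monocytes and macrophages are studied in antibody-driven arthritis. In RNA of mixed blood cells, fewer cells of a type and less RNA per cell cannot be told apart.

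The bases upstream of the transcription start are printed for Ccr2, Clec4a3 and Fcgr3a, the 3 genes whose MTXMS_A arrays all lay below their MS_A arrays. The sequences come from RefSeq promoters of build GRCr8, which held an entry for 7 of the 10 genes, and each is the 250 bases before the start, 5′ to 3′. Capitals mark matches, on either strand, to GAGGAA (core of the PU.1 motif), TGTGGT (RUNX) or TTNNGCAA (C/EBP), motifs of factors known from myeloid cells. GAGGAAGT (a longer PU.1 motif, which contains GAGGAA) and the interferon response element (GAAA, any 2 bases, GAAA) were searched the same way and are not marked.
Ccr2, chr8:132611953-132612202 (+ strand): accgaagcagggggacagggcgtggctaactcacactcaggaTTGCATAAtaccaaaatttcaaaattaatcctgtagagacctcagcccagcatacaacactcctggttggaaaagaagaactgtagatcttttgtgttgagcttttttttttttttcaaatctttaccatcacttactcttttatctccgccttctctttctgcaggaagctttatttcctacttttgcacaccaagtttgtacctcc
Clec4a3, chr4:157886508-157886757 (+ strand): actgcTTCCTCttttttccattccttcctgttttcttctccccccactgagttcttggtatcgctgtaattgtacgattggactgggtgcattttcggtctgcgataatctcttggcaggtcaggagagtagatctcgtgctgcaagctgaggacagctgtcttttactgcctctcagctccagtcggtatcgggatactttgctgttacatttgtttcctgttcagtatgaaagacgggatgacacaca
Fcgr3a, chr13:85782386-85782635 (+ strand): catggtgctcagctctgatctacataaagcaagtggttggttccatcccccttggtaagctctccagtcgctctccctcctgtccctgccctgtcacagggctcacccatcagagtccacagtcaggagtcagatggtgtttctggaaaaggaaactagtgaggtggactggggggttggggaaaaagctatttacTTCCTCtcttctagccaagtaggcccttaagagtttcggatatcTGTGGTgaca
GAGGAA was found in 5 of the 7 promoters (Csf1r, Cd14, Clec4a3, Mrc1 and Fcgr3a), and in 23.3% of all 33469 promoters over the same window. TGTGGT was found in those of Cx3cr1 and Fcgr3a, against 14.5% of all promoters, and TTNNGCAA in that of Ccr2, against 9.22%. GAGGAAGT and the interferon response element were each found in 1 of the 7, that of Fcgr3a, against 2.04% and 3.41% of all promoters. All 5 motifs were chosen with the receptors' values known. None of these motifs was found in all 3 printed windows, and a match of letters is a description, not a binding site.

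Of 23 other monocyte markers, 19 lay above the array median on all 14 arrays, among them Lyz2, the lysozyme of myeloid cells. All 14 T cell markers and all 10 B cell markers lay above the median on every array too, as did the 11 platelet markers. These levels therefore do not show which cells the receptor RNA came from. NOCIA_B array 3 and MTXMS_A array 3 stood apart from the rest, with mean correlations to the other arrays of 0.855 and 0.882, against 0.912 to 0.934 for the other 12. The 3′ over 5′ actin ratio, a sign of RNA quality that is higher in degraded RNA, differed between the groups. It was 3.15, 3.13 and 5.01 on the MTXMS_A arrays, 2.62, 2.44 and 2.69 on the MS_A arrays, 4.36, 3.35 and 4.13 on the NOCIAMS_A arrays, 2.83 and 2.77 on the CIA_B arrays, and 3.01, 2.68 and 1.97 on the NOCIA_B arrays. The groups of a comparison did not overlap in this ratio, except CIA_B with NOCIA_B, and its part in the receptor differences was not tested. No probe set of the 18515 tested passed an adjusted p of 0.05 in any of the 6 comparisons or in the F test among the 5 groups, so the share called was 0% for all genes and 0 of 10 receptors were called throughout. At an unadjusted p under 0.05, the F test picked 2 of the 10 receptors, Fcgr3a (limma, adjusted p = 0.64) and Clec4a3 (adjusted p = 0.645), against 7.42% of all probe sets.

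The chemokine receptor Ccr2 brings classical monocytes out of the marrow and into inflamed tissue. Its log2 signals were 4.79, 7.72 and 5.30 on the MTXMS_A arrays, 7.90, 8.10 and 9.23 on the MS_A arrays, 7.46, 6.97 and 8.30 on the NOCIAMS_A arrays, 7.08 and 7.71 on the CIA_B arrays, and 5.56, 8.10 and 7.85 on the NOCIA_B arrays. The 3 MTXMS_A arrays lay below all MS_A arrays, though 1 of them reached the level of the arrays before therapy, and NOCIA_B array 1 was nearly as low as MTXMS_A array 3. Ccr2 was above the array median on 10 of 14 arrays, so its lowest values are near the dim end of the measurement.
Cx3cr1, the fractalkine receptor of non-classical monocytes and NK cells, varied over a narrower range. On the log2 scale its signals were 7.78, 8.08 and 6.61 on the MTXMS_A arrays, 7.30, 7.91 and 7.57 on the MS_A arrays, 6.52, 7.30 and 7.79 on the NOCIAMS_A arrays, 7.36 and 7.41 on the CIA_B arrays, and 6.78, 6.94 and 7.83 on the NOCIA_B arrays. The groups overlapped, and both CIA_B arrays lay in the middle of the range.
For Csf1r the log2 signals were 10.91, 11.59 and 10.59 on the MTXMS_A arrays, 11.55, 12.14 and 12.08 on the MS_A arrays, 11.71, 11.46 and 11.98 on the NOCIAMS_A arrays, 11.18 and 11.23 on the CIA_B arrays, and 10.67, 11.76 and 12.07 on the NOCIA_B arrays. MTXMS_A array 2 was just above the lowest MS_A array, so those groups met, while all 3 MS_A and all 3 NOCIAMS_A arrays were above both CIA_B arrays.

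Cd14, which hands bacterial lipopolysaccharide to the Toll-like receptor 4 complex, had log2 signals of 10.03, 11.62 and 12.80 on the MTXMS_A arrays, 11.83, 11.66 and 13.17 on the MS_A arrays, 12.11, 11.29 and 12.96 on the NOCIAMS_A arrays, 11.44 and 11.19 on the CIA_B arrays, and 10.75, 12.26 and 10.83 on the NOCIA_B arrays. The MTXMS_A arrays spanned nearly the whole range of the gene, and all 3 MS_A arrays stood above both CIA_B arrays. NOCIAMS_A array 2 lay between the CIA_B values.
Clec4a3 is a C-type lectin receptor of the dendritic cell immunoreceptor family. Its log2 signals were 8.31, 11.03 and 9.90 on the MTXMS_A arrays, 11.62, 12.10 and 12.89 on the MS_A arrays, 11.33, 11.04 and 11.79 on the NOCIAMS_A arrays, 11.29 and 11.05 on the CIA_B arrays, and 10.21, 11.66 and 11.29 on the NOCIA_B arrays. The 3 MTXMS_A arrays lay below every array of MS_A, NOCIAMS_A and CIA_B, array 2 by a narrow margin against the last pair of groups, and the 3 MS_A arrays lay above both CIA_B arrays.
Mrc1, the mannose receptor of macrophages, ran differently. Its log2 signals were 8.14, 8.39 and 9.48 on the MTXMS_A arrays, 7.55, 7.42 and 8.99 on the MS_A arrays, 9.14, 9.39 and 9.50 on the NOCIAMS_A arrays, 8.45 and 8.99 on the CIA_B arrays, and 7.83, 9.85 and 9.06 on the NOCIA_B arrays. The 3 MS_A arrays lay below the 3 NOCIAMS_A arrays, and MS_A had the lowest mean of the 5 groups for this gene alone among the 10.

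Among the Fc receptors, Fcgr3a is an activating receptor for IgG that signals through the adaptor chain encoded by Fcer1g. Its log2 signals were 10.82, 11.62 and 10.79 on the MTXMS_A arrays, 11.82, 12.79 and 12.17 on the MS_A arrays, 11.39, 11.32 and 11.80 on the NOCIAMS_A arrays, 11.68 and 11.74 on the CIA_B arrays, and 10.73, 11.28 and 11.37 on the NOCIA_B arrays. MS_A was the highest group with no overlap with any other, by a narrow margin. Its lowest array was at 11.82, against 11.80 on the highest NOCIAMS_A array and 11.74 on the higher CIA_B array. How often a probe set separates MS_A from every other group was not counted. Both CIA_B arrays lay above all MTXMS_A and NOCIA_B arrays.
Fcgr1a, the high-affinity IgG receptor, had log2 signals of 8.73, 10.27 and 10.70 on the MTXMS_A arrays, 10.67, 10.67 and 11.62 on the MS_A arrays, 10.69, 10.004 and 10.79 on the NOCIAMS_A arrays, 10.57 and 10.04 on the CIA_B arrays, and 9.78, 10.62 and 9.93 on the NOCIA_B arrays. MTXMS_A array 1 had the lowest value of all 14 arrays, and MTXMS_A array 3 met the lower MS_A arrays.
Fcgr2b, the inhibitory IgG receptor of monocytes and B cells, had log2 signals of 10.93, 12.09 and 13.49 on the MTXMS_A arrays, 11.42, 11.55 and 12.38 on the MS_A arrays, 12.18, 11.35 and 12.15 on the NOCIAMS_A arrays, 11.39 and 11.66 on the CIA_B arrays, and 11.11, 11.75 and 10.73 on the NOCIA_B arrays. Its highest value came from MTXMS_A array 3, and all groups overlapped.
Fcer1g, the shared signalling chain, was bright everywhere, at 14.56, 14.73 and 14.20 on the MTXMS_A arrays, 14.50, 14.89 and 14.96 on the MS_A arrays, 14.72, 14.34 and 14.75 on the NOCIAMS_A arrays, 14.15 and 14.25 on the CIA_B arrays, and 13.83, 14.86 and 15.60 on the NOCIA_B arrays (log2 signal). The MS_A and NOCIAMS_A arrays all lay above both CIA_B arrays, and the NOCIA_B arrays gave both the lowest and the highest value.

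**Figure D1:**
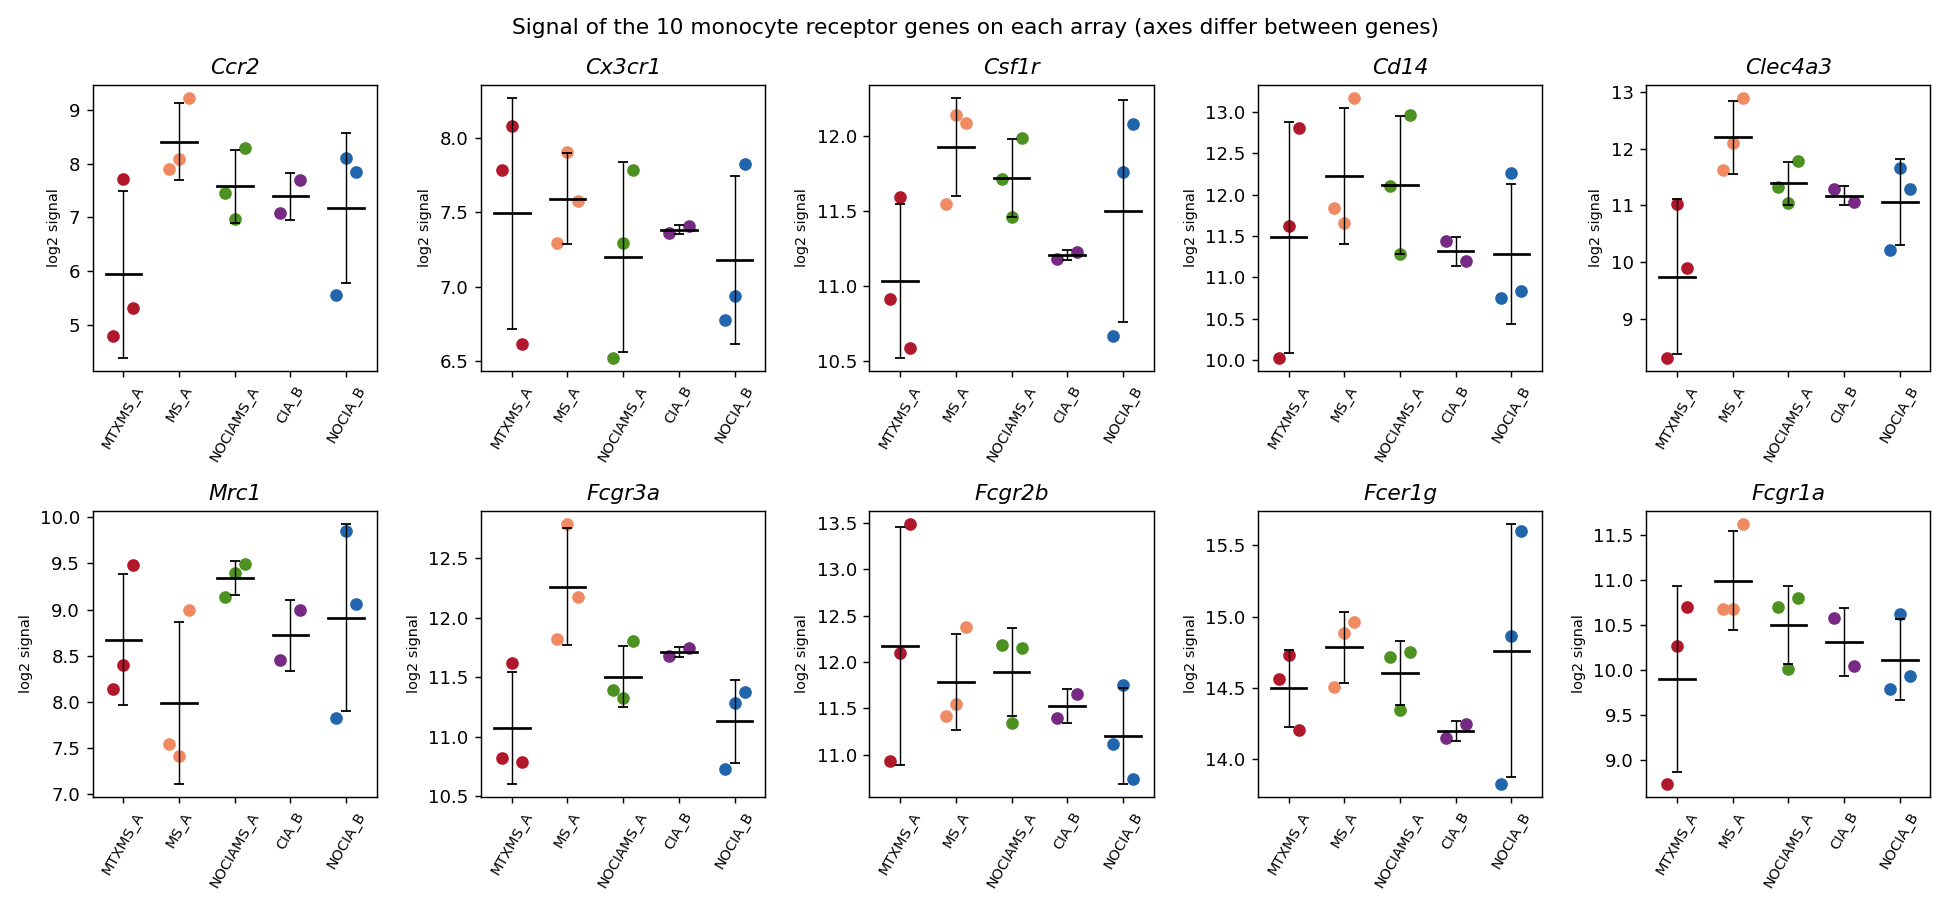
Log2 MAS5 signal (vertical axis, its range set per gene) of the 10 receptor genes in the 5 groups; each point is 1 array, the bar is the group mean and the whiskers are 1 SD (n = 3 arrays, 2 in CIA_B). MS_A was above every MTXMS_A array for Ccr2, Clec4a3 and Fcgr3a, and the spread within MTXMS_A and NOCIA_B was wide for most genes.

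Ordered by group mean, MS_A was the highest group for 8 of the 10 receptors, all but Mrc1 and Fcgr2b, and MTXMS_A was the lowest for 5, Ccr2, Csf1r, Clec4a3, Fcgr3a and Fcgr1a. How often these groups took those places over all probe sets was not counted, and the receptors were chosen with earlier results known. Of the 40 pairs of groups next to each other in these orders, the ranges of mean ± SD met in 39, the exception being MS_A over CIA_B for Fcgr3a. Single arrays held many of the extreme values. MS_A array 3 held the highest value of Ccr2, Cd14, Clec4a3 and Fcgr1a, and MTXMS_A array 1 the lowest value of the same 4 genes. All 10 receptors were among their 3 lowest arrays on NOCIA_B array 1, and 8 of 10 among their 3 highest on MS_A array 3. In the heatmap these arrays form a red column and a pair of blue columns.

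**Figure D2:**
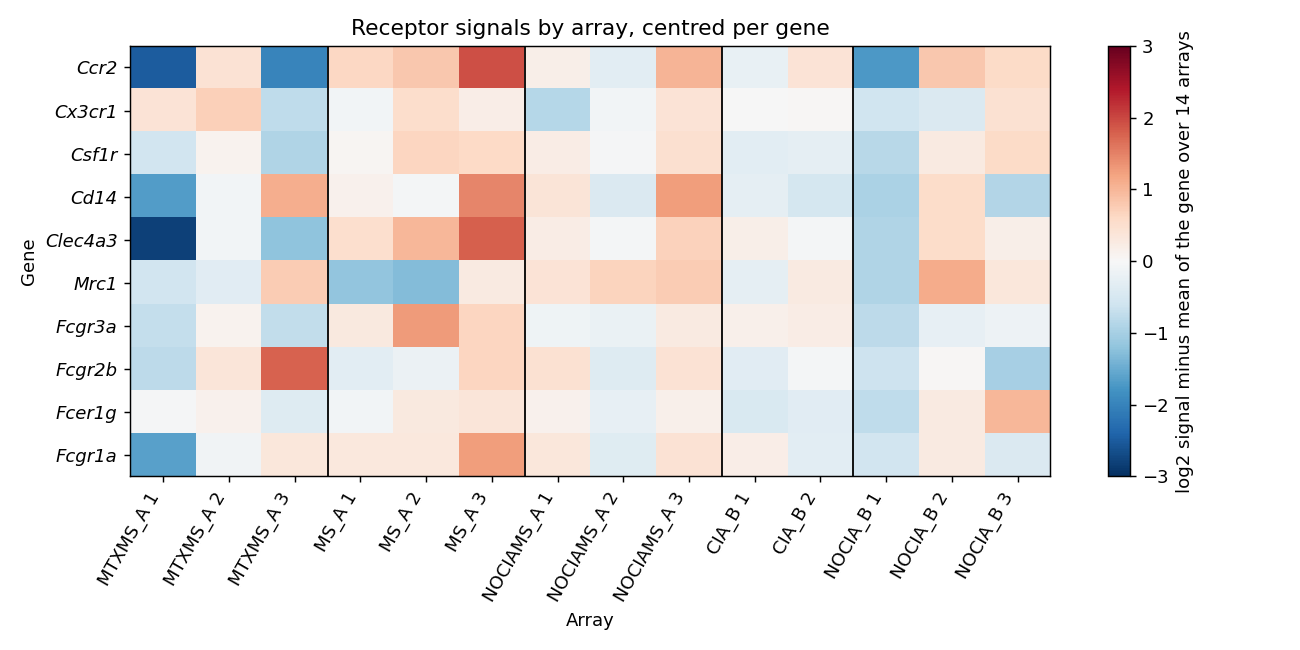
Receptor signals by array (columns, grouped by lines) after subtraction of each gene's mean over 14 arrays (colour, log2 units, limited to 3 either way). MS_A array 3 is above the mean for all 10 genes, NOCIA_B array 1 is below it for all 10, and MTXMS_A array 1 is below it for 9.

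The comparison of MTXMS_A with MS_A sets arthritic rats under methotrexate with stimulation against arthritic rats under stimulation alone on the same day. Of the 10 receptors, 8 were lower in MTXMS_A, where 50.6% of all probe sets were lower, and their median log2 difference was -0.82, against -0.01 over all probe sets tested. Clec4a3 differed by -2.46 ± 0.60 (log2, SE), 5.49-fold lower (limma, adjusted p = 0.186), and Ccr2 by -2.47 ± 0.80 (adjusted p = 0.229). For Ccr2, MTXMS_A arrays 1 and 3 were at 0.222 and 0.371 of their array's median signal, at the dim end of the measurement, so its difference is not given as a fold. The 3′ over 5′ actin ratio was higher on all MTXMS_A arrays (3.13 to 5.01) than on the MS_A arrays (2.44 to 2.69). Fcgr3a differed by -1.19 ± 0.31, 2.28-fold lower (adjusted p = 0.188). Fcgr1a (-1.09 ± 0.48, adjusted p = 0.32) and Csf1r (-0.89 ± 0.36, adjusted p = 0.297) complete the 5 receptors with an unadjusted p under 0.05, all lower, against 14.8% of all probe sets in either direction and 7.76% in that one. At the thresholds the study's methods give (unadjusted p under 0.05 and fold over 2), 4 of 10 receptors were lower, against 2.35% of all probe sets, and none was higher. The study also dropped probe sets by detection calls, a step that was not applied here. For 3 receptors, Ccr2, Clec4a3 and Fcgr3a, no MTXMS_A array reached any MS_A array, which held in that direction for 10.7% of all probe sets. The other 5 differed by -0.74 ± 0.69 (Cd14), -0.29 ± 0.36 (Fcer1g), -0.10 ± 0.43 (Cx3cr1), 0.39 ± 0.54 (Fcgr2b) and 0.69 ± 0.54 (Mrc1), each with a 95% interval across 0.

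The differences of Clec4a3, Ccr2, Fcgr3a, Fcgr1a and Csf1r kept their sign when any array of either group was left out. Without MTXMS_A array 1, the array with the lowest Ccr2, Clec4a3 and Fcgr1a, Clec4a3 differed by -1.74, Ccr2 by -1.90, Fcgr3a by -1.06 and Fcgr1a by -0.51, and 3 receptors kept an unadjusted p under 0.05. The median over the 10 receptors was -0.41 without MTXMS_A array 1 and -0.52 without MS_A array 3, and it reached -1.01 without MS_A array 1, against -0.82 with all arrays. For Cd14 the difference was -0.01 without MTXMS_A array 1 and -1.40 without MTXMS_A array 3, against -0.74 with all arrays. Fcgr2b had a difference of -0.27 without MTXMS_A array 3, and Cx3cr1 one of 0.34 without that array and 0.06 without MS_A array 2, each of opposite sign to the value with all arrays.

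**Figure D3:**
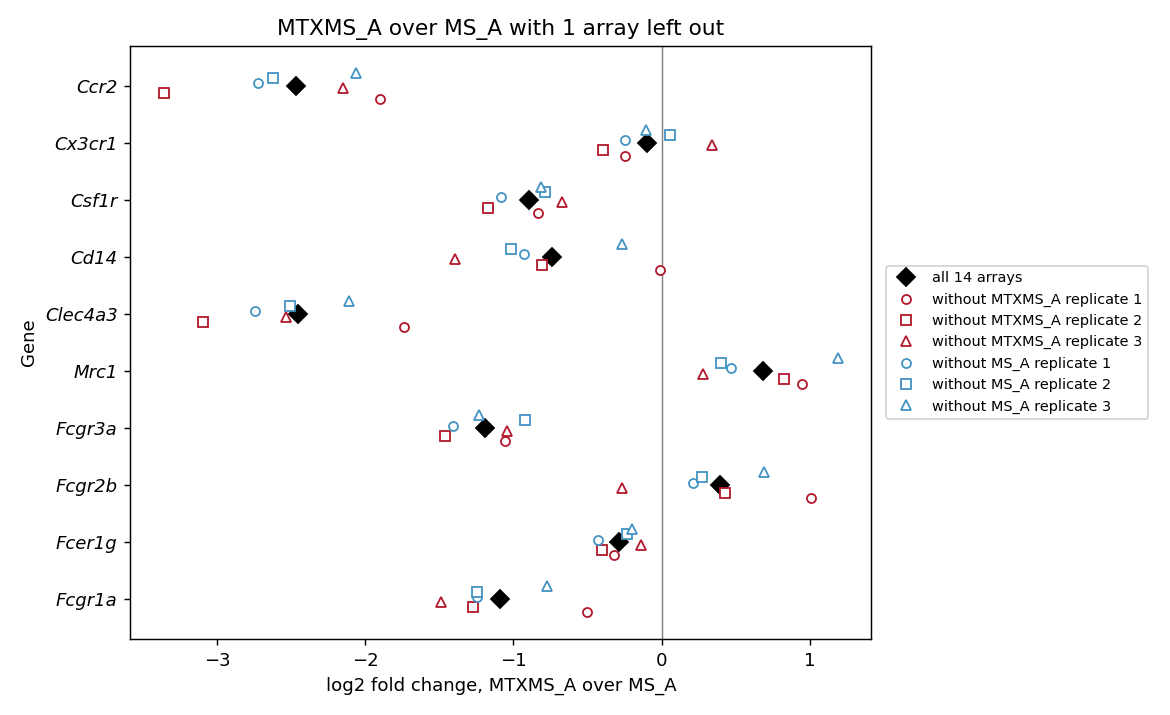
Log2 fold change of MTXMS_A over MS_A (horizontal axis) for each receptor with all 14 arrays (diamond) and with 1 array of either group left out (open symbols, red for a MTXMS_A array and blue for a MS_A array). Clec4a3, Ccr2 and Fcgr3a stay below 0 throughout, while Cx3cr1 and Fcgr2b cross 0.

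Genes around these receptors were read from lists of ligands, partners and cell types. The lists overlap in part. Csf3r is in both the list of other monocyte markers and that of neutrophil markers. Fcer1a is in both the list of other Fc and lectin receptors and that of basophil and mast cell markers. Ccl2, the ligand of Ccr2, had log2 signals of 7.96, 8.51 and 11.42 on the MTXMS_A arrays and 5.30, 5.90 and 6.98 on the MS_A arrays. Ccl2 was higher in MTXMS_A by 3.23 ± 1.19 (limma, adjusted p = 0.263), opposite in sign to its receptor. The groups did not overlap, as in 12.1% of all probe sets in that direction. The MS_A values of arrays 1 and 2 lay under the array median, and MTXMS_A array 3 is one that stood apart. Ccl2 was at 8.99, 4.73 and 9.15 on the NOCIAMS_A arrays, 6.35 and 6.09 on the CIA_B arrays, and 6.18, 8.26 and 8.55 on the NOCIA_B arrays. Csf1, the ligand of Csf1r, differed by -0.55 ± 0.51.
Of 11 tested genes of Fc receptor signalling, 10 were lower in MTXMS_A, 6 of them with an unadjusted p under 0.05, and 1 was higher. The lower ones include the phosphatase Ptpn6 (-1.52 ± 0.40, adjusted p = 0.188), the kinase Fgr (-1.46 ± 0.48) and the exchange factor Vav1 (-0.54 ± 0.19). The higher one was Inpp5d, the lipid phosphatase that acts below Fcgr2b (0.72 ± 0.26). In the group around Cd14 and Toll-like receptor 4, 8 of 10 listed genes were tested, and Tlr4 itself was not among them. Of these 8, 5 were lower and the median was -0.03, near that of all probe sets. Tlr2 was at -1.39 ± 0.45 and Ly96 at -0.83 ± 0.37, while Traf6 was at 1.03 ± 0.50 and Tirap at 0.54 ± 0.27. Among 6 other Fc and lectin receptors 4 were lower, with Fcer2 at -2.02 ± 0.39 and Clec4a1, a relative of Clec4a3, at -1.86 ± 0.46.
Of 23 other monocyte markers 16 were lower (median log2 difference -0.55), 4 of them with an unadjusted p under 0.05, among them Fcnb (-2.76 ± 0.77) and Lst1 (-1.29 ± 0.44). Monocyte transcription factors had a median of -0.30, with 5 of 7 lower and none at an unadjusted p under 0.05. None of these list genes passed the adjusted p.

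Markers of other cells were read in the same comparison. All 12 NK cell markers were lower in MTXMS_A (median -0.83), 6 with an unadjusted p under 0.05, with Ncr1 at -2.25 ± 0.54 and Klrk1 at -1.12 ± 0.24. Their summed level, as the mean of centred log2 signals, ran between -0.76 and 0.02 on the MTXMS_A arrays and between -0.26 and 0.94 on the MS_A arrays. NK cells carry Fcgr3a and Fcer1g as well, and the part of NK cells in the Fcgr3a difference was not tested. All 10 erythroid markers were lower (median -1.37), with MTXMS_A array 3 at -5.18 and the other 2 MTXMS_A arrays at 0.69 and 1.06. All 9 basophil and mast cell markers were higher by group mean (median 1.38), and these cells also use Fcer1g. Their summed level was 0.26, -1.10 and 2.60 on the MTXMS_A arrays and -0.71, 0.02 and -0.80 on the MS_A arrays, so MTXMS_A array 2 lay below every MS_A array and array 3 above all. Neutrophil markers had a median of -0.54 with 5 of 8 lower, T cell markers -0.10 with 10 of 14 lower, B cell markers -0.21 with 7 of 10 lower, platelet markers -0.25 with 9 of 11 lower, and dendritic cell markers 0.04 with 2 of 5 lower. At an unadjusted p under 0.05, 2 B cell markers were lower, Cr2 (-1.58 ± 0.42, limma, adjusted p = 0.188) and Pou2af1 (-0.99 ± 0.35). Of the T cell markers 1 was lower and 1 higher at that threshold, and of the basophil and mast cell markers 1 was higher. B cell markers ran from -0.49 to 0.74 on the MTXMS_A arrays, highest on array 3, the array with the highest Fcgr2b. The part of these cells in the receptor differences was not tested.

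The comparison of MS_A with CIA_B sets arthritic rats after the stimulation against other arthritic rats before any therapy. Of the 10 receptors 9 were higher in MS_A, against 49.2% of all probe sets, with a median log2 difference of 0.64, against -0.01 over all probe sets. Clec4a3 (1.03 ± 0.67), Ccr2 (1.02 ± 0.90) and Cd14 (0.91 ± 0.78) had the highest values and Mrc1 (-0.73 ± 0.61) the single negative one. None of the 10 had an unadjusted p under 0.05, against 7.83% of all probe sets, and the lowest adjusted p among them was 0.616. This count depended on the fit. It was 3 of 10 when only the groups compared were fitted (limma, lowest adjusted p = 0.36). It was also 3 of 10 with array weights (limma, lowest adjusted p = 0.164). For 7 receptors all MS_A arrays lay above both CIA_B arrays (Ccr2, Csf1r, Cd14, Clec4a3, Fcgr3a, Fcer1g and Fcgr1a), against 16.2% of all probe sets. The MS_A arrays used here are those of the comparison with MTXMS_A, so a high MS_A value enters both, and without MS_A array 3 the median over the 10 was 0.46. Of 23 other monocyte markers 18 were higher in MS_A (median 0.36). Platelet markers were higher in all 11 cases (median 1.26), and T cell markers lower in 12 of 14 (median -0.39). The actin ratio was lower on all MS_A arrays (2.44 to 2.69) than on the CIA_B arrays (2.77 and 2.83). Their part in the receptor differences was not tested.

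In MTXMS_A against CIA_B, 6 of the 10 receptors were lower, against 51.9% of all probe sets, and the median was -0.11, with 0 of 10 at an unadjusted p under 0.05, against 5.4% of all probe sets. Ccr2 differed by -1.45 ± 0.90, Clec4a3 by -1.43 ± 0.67 (adjusted p = 0.944) and Fcgr3a by -0.64 ± 0.34. Clec4a3 and Fcgr3a on all MTXMS_A arrays lay below both CIA_B arrays, a separation met by 12.5% of all probe sets in that direction. Fcgr2b had the highest value, 0.65 ± 0.61, which was -0.01 without MTXMS_A array 3. The median over the 10 was 0.07 without MTXMS_A array 1, -0.32 without array 2 and -0.47 without array 3. Without MTXMS_A array 2, Ccr2 (-2.34), Clec4a3 (-2.07) and Fcgr3a (-0.91) had an unadjusted p under 0.05, and without array 1 Fcgr2b did (1.27). Other monocyte markers were lower in 16 of 23 cases (median -0.15). T cell markers were lower in 13 of 14 cases (median -0.41), NK cell markers lower in 10 of 12 (median -0.52) and platelet markers higher in all 11 (median 0.80). The actin ratio was higher on all MTXMS_A arrays (3.13 to 5.01) than on the CIA_B arrays (2.77 and 2.83), and the part of these in the receptor differences was not tested. This comparison shares its CIA_B arrays with the one before.

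MS_A against NOCIAMS_A compares arthritic with healthy rats under the same stimulation on the same day. Here 2 receptors had an unadjusted p under 0.05, against 5.68% of all probe sets, in opposite directions. Fcgr3a was higher in arthritic rats by 0.76 ± 0.31 (limma, adjusted p = 0.81). Its groups did not overlap, as in 7.08% of all probe sets. The margin was narrow, 11.82 on the lowest MS_A array against 11.80 on the highest NOCIAMS_A array. Mrc1 was lower, with a log2 difference of -1.36 ± 0.54, 2.56-fold (limma, adjusted p = 0.81), with no overlap either, as in 10.8%. The other 8 lay between -0.11 (Fcgr2b) and 0.83 (Ccr2), and Clec4a3 was at 0.81 ± 0.60. The median over the 10 was 0.30, against -0.05 over all probe sets, and ran from 0.15 without MS_A array 3 to 0.58 without NOCIAMS_A array 3. Without MS_A array 2, and likewise without NOCIAMS_A array 2, 0 receptors had an unadjusted p under 0.05, and Fcgr3a was at 0.49 and 0.67 in these fits. Other monocyte markers were higher in MS_A in 14 of 23 cases (median 0.04). NK cell markers were higher in MS_A in 11 of 12 cases (median 0.64) beside the Fcgr3a difference, and basophil and mast cell markers lower in 8 of 9 (median -0.95). The actin ratio was lower on all MS_A arrays (2.44 to 2.69) than on the NOCIAMS_A arrays (3.35 to 4.36), and the part of these was not tested.

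NOCIAMS_A against NOCIA_B sets healthy rats after the stimulation against other healthy rats before therapy. In NOCIAMS_A 9 of 10 receptors were higher (59.6% of all probe sets were). The median log2 difference over the 10 was 0.38, against 0.09 over all probe sets. None had an unadjusted p under 0.05, against 6.18% of all probe sets, and the highest values were Cd14 (0.84 ± 0.69) and Fcgr2b (0.69 ± 0.54). Without NOCIA_B array 1, on which all 10 receptors were among their 3 lowest, the median was -0.10. Fcer1g (-0.63) had an unadjusted p under 0.05 in that fit (limma, adjusted p = 0.24). All 23 other monocyte markers were higher in NOCIAMS_A (median 0.62), all 11 platelet markers lower (median -0.69), and the actin ratio higher on all NOCIAMS_A arrays (3.35 to 4.36, against 1.97 to 3.01 on the NOCIA_B arrays). In CIA_B against NOCIA_B, arthritic and healthy rats before therapy, 7 of 10 receptors were higher, against 55.5% of all probe sets, and the values ran from -0.56 ± 0.40 (Fcer1g) to 0.58 ± 0.34 (Fcgr3a), with 0 of 10 at an unadjusted p under 0.05, against 8.47% of all probe sets. The median of 0.16 was -0.27 without NOCIA_B array 1. In the same fit Fcer1g was at -1.03, with an unadjusted p under 0.05 (limma, adjusted p = 0.0926). Array weights also gave 1 receptor with an unadjusted p under 0.05. Fcgr3a was the only receptor with no overlap, higher on both CIA_B arrays, against 11.7% of all probe sets in that direction. Of 23 other monocyte markers 17 were higher in CIA_B (median 0.36). All 11 platelet markers were lower in CIA_B (median -1.65), 8 with an unadjusted p under 0.05, and all 10 erythroid markers were lower (median -1.32). The summed platelet level was -1.13 and -0.62 on the CIA_B arrays and -0.61, 0.89 and 1.36 on the NOCIA_B arrays. The summed erythroid level was -1.03 and 0.23 on the CIA_B arrays and 0.19, -0.08 and 2.495 on the NOCIA_B arrays. In this erythroid level CIA_B array 2 lay above NOCIA_B arrays 1 and 2. The highest value came from NOCIA_B array 3, which stood apart from the rest. The difference between the change in arthritic rats (MS_A over CIA_B) and that in healthy rats (NOCIAMS_A over NOCIA_B) had 0 of 10 receptors at an unadjusted p under 0.05, against 13.1% of all probe sets, and ran from -1.17 ± 0.81 (Mrc1) to 0.75 ± 0.54 (Fcer1g). The receptor count was 1 of 10 without NOCIA_B array 1, and likewise without MS_A array 3 or with array weights. In the difference between the changes, all 11 platelet markers were above 0 (median 2.37), 8 with an unadjusted p under 0.05. Of 23 other monocyte markers 17 were below 0 (median -0.24). The part of these markers in the receptor values was not tested.

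**Figure D4:**
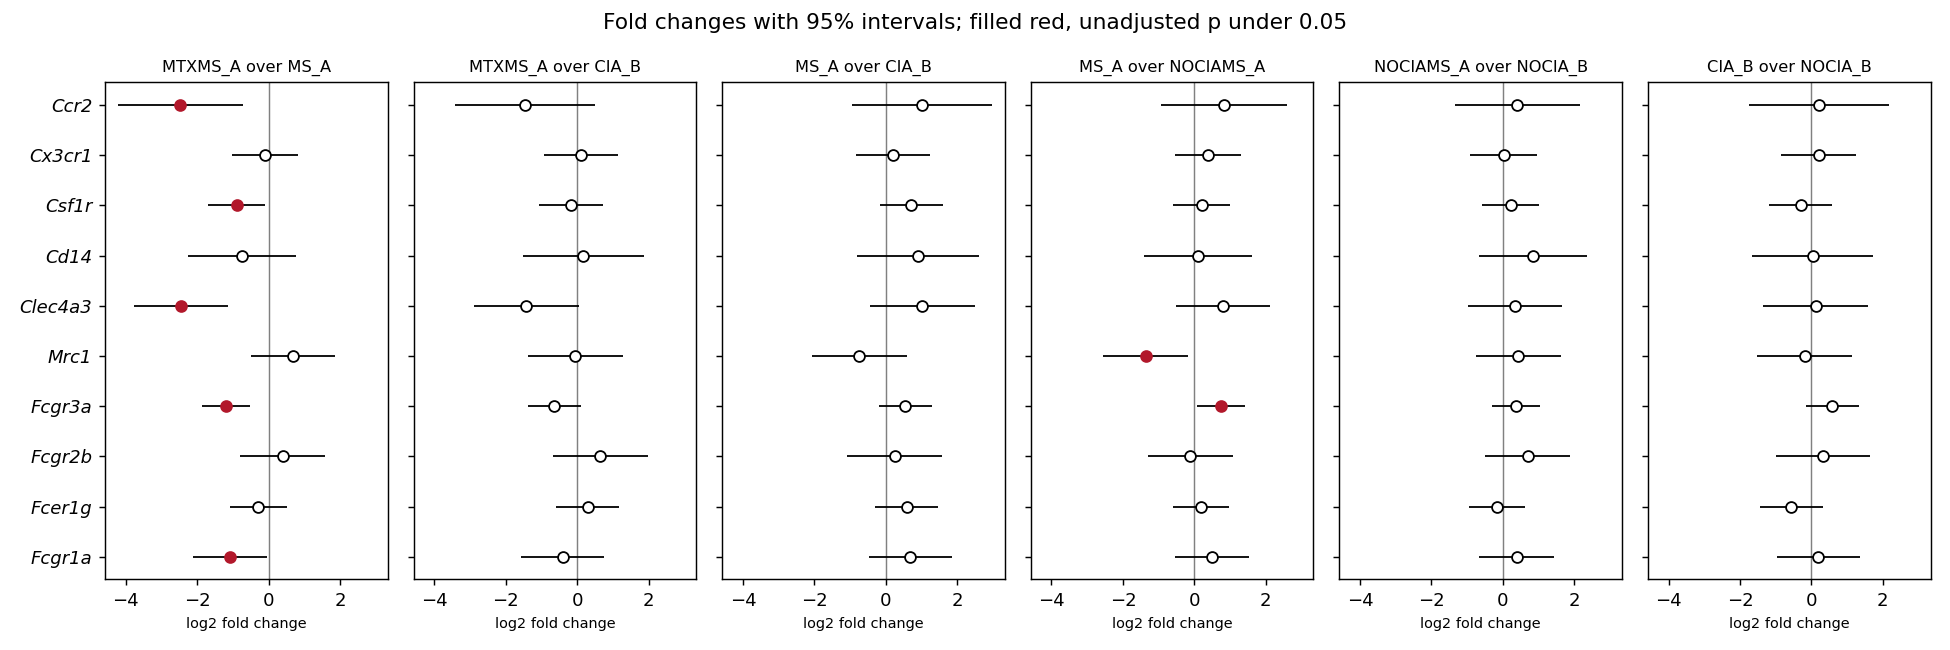
Log2 fold changes (points) with 95% intervals (lines) of the 10 receptors in the 6 comparisons, each named as the first group over the second; red points have an unadjusted p under 0.05. Red points lie in MTXMS_A over MS_A (5, all below 0) and in MS_A over NOCIAMS_A (Mrc1 below 0 and Fcgr3a above 0).

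Across the 14 arrays the 10 receptors did not vary as 1 block. Of the 45 pairs, 38 had a Pearson r above 0, with a median of 0.414 and a range from -0.356 (Cx3cr1 with Fcgr2b) to 0.940 (Ccr2 with Clec4a3), and 6 pairs reached 0.8. Cd14 with Fcgr1a had an r of 0.906 and Ccr2 with Csf1r 0.884. These correlations run over 14 arrays of 5 groups that share a scaling, so they are a description. The genes most like each receptor were also read. Ccr2 was nearest to Ap1s2, an adaptor of clathrin coats (r = 0.978, rho = 0.947), and Clec4a3 to Ptpn6 (r = 0.969), Clec4a1 (r = 0.969) and Ap1s2 (r = 0.968). Ptpn6 was among the genes nearest to Ccr2 too (r = 0.950), and it is the phosphatase that inhibitory receptors recruit. Fcgr1a was nearest to Ly96, the partner of Toll-like receptor 4 (r = 0.970), Cd14 to Cyfip1 (r = 0.959), Csf1r to Coro1b (r = 0.941) and Fcer1g to Pgk1 (r = 0.964). Fcgr3a was nearest to Zbp1, a sensor of nucleic acids (r = 0.907), and Fcgr2b to Nck1 (r = 0.943). Mrc1 and Cx3cr1 had no neighbour above 0.9, with Bmt2 at 0.849 and Ankrd13d at 0.866.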

How the data were processed

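Gene expression was measured on 14 rat arrays. The authors computed 1 MAS5 intensity per probe set (linear scale, affy package, version not stated), and each array of the deposited intensity table had a trimmed mean of 500. Genes were named from the platform annotation: of 31042 probe sets without controls, 20826 had 1 symbol, 436 several and 9780 none. Log2 intensities with no pseudocount went into limma 3.58.1 (R 4.3.3), 1 mean per group over all arrays, for the 18515 probe sets above their array's median on at least 2 arrays, with Benjamini-Hochberg adjustment over all of them and a threshold of 0.05. Replicates are separate rats, and the number of arrays limits the precision. The receptors, the gene lists and the motifs were chosen with earlier results of these data known. All 10 receptors are named, with up to 4 genes per list (smallest unadjusted p) and the genes most like each receptor. The script was tested on simulated data. Alternatives were another normalization, filters, a pseudocount of 16, array weights, no moderation, only the groups compared, the replicate block, the study's thresholds and left-out arrays.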

Additional observations from a re-analysis of the deposited data

Results flagged for a closer look

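Fcer1g had a difference of 0.75 on the log2 scale between the change in arthritic rats and the change in healthy rats. Each arthritic MS_A array lay above the CIA_B mean, by 0.31 to 0.77, and each healthy NOCIAMS_A array lay below the NOCIA_B mean, by values of -0.42 to -0.01. The difference itself did not pass the test in limma (adjusted p = 0.528), and the NOCIA_B arrays spread from 13.83 to 15.60 for this gene. The healthy change was 0.26 without NOCIA_B array 3, an array that stands apart, and -0.63 without NOCIA_B array 1, so the opposite directions do not hold without array 3. The difference between the changes was 0.33 without NOCIA_B array 3 and 1.21 without NOCIA_B array 1. With 2 or 3 arrays per group, single arrays far from their group were not tested for.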

How the results depend on the processing

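At an adjusted p of 0.05, the count of receptors called was 0 in each comparison and in the F test under every alternative that uses this threshold, left-out arrays included. The lowest adjusted p of a receptor was 0.0816, in the difference between the changes of arthritic and healthy rats without NOCIA_B array 1. At the study's thresholds (unadjusted p under 0.05, fold over 2), 4 receptors were called in MTXMS_A over MS_A (Ccr2, Clec4a3, Fcgr3a and Fcgr1a) and 1 in MS_A over NOCIAMS_A (Mrc1), since these thresholds do not adjust for the number of tests. The study's removal of probe sets by detection calls was not part of this alternative. Over all probe sets, where the count was 0 too, 765 passed in CIA_B over NOCIA_B and 1651 in the difference between the changes with array weights, 168 and 980 without NOCIA_B array 1, and 5 in MTXMS_A over MS_A without moderation, no receptor among them. The other nonzero counts at this threshold ran from 1 to 15 probe sets, 15 being CIA_B over NOCIA_B without CIA_B array 1. The study's thresholds called 347 to 1886 probe sets per comparison. The 7 receptor differences with an unadjusted p under 0.05 kept their sign under all alternatives.

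The median difference over the receptors in CIA_B over NOCIA_B was -0.39 with array weights, which gave NOCIA_B arrays 1 and 3 weights of 0.32 and 0.29, and ran from -0.27 (without NOCIA_B array 1) to 0.43 (without NOCIA_B array 2) when arrays were left out. In NOCIAMS_A over NOCIA_B it ran from -0.10 to 0.64 over the same left-out arrays. In the other 4 comparisons it moved by less than 0.42, the spread of the median between replicates. With CIA_B at 1 array, the lone array was assumed to vary like the other groups.

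Replicate numbers did not pair the arrays: of 26 pairs of arrays with the same number, 10 had a correlation of deviations above 0.1, and 3 of 14 arrays correlated best with their own number. With the replicate block the count of receptors called stayed at 0, and the median difference in MTXMS_A over MS_A was -0.82. Each receptor has 1 probe set, so using the brightest probe set alone changes nothing.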
